A study of Mus musculus with 89 samples.

Results

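The 39 Hox genes of the mouse Hox clusters were followed, out of 26276 named genes, in RNA-seq counts from mouse embryonic stem cells. Members were chosen by name alone, as every gene called Hoxa, Hoxb, Hoxc or Hoxd followed by a number. They number 11 in cluster A, 10 in cluster B, 9 in cluster C and 9 in cluster D. The cells were V6.5 embryonic stem cells of the genotype H2afz-FKBP-V, in which the gene for the histone variant H2A.Z.1 carries a tag that the dTAG molecule uses to send the protein to the proteasome. All 6 libraries came from this genotype, grown in serum-free medium with LIF and inhibitors of MEK and GSK3, and they form 3 control and 3 dTAG libraries. The duration of the dTAG treatment, and whether the line is a single clone, are not given for these libraries in the sources used here. The comparison asks which transcripts differ in level after H2A.Z.1 is depleted. RNA does not measure the tagged protein, so it does not check the depletion. The H2afz transcript stood at 78.8, 81.9 and 95.7 CPM (counts per 1000000 counts in named genes) in the controls and 107, 56.3 and 35.9 in dTAG replicates 1, 2 and 3.

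Hox genes encode homeodomain transcription factors that give cells their position along the head-to-tail axis of the embryo. Their order along each cluster follows the order in which they are used in time and along the body, with low paralogue numbers anterior and high numbers posterior. In embryonic stem cells the clusters lie largely silent under Polycomb repressive complexes and their H3K27 methylation, many with an activating mark beside it. H2A.Z is found at many such promoters.

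The libraries were unequal. Totals were 14565322, 16033011 and 14427884 counts in control replicates 1, 2 and 3, 13214351 in dTAG replicate 1, and 2284068 and 2121183 in dTAG replicates 2 and 3. Olfactory and vomeronasal receptor genes, 1455 of them and not used by stem cells, were detected in 10.9% to 18.0% of cases per control library. The figure was 23.4% for dTAG replicate 1, but 71.4% and 97.0% for replicates 2 and 3 of the dTAG group. These last 2 libraries stood apart from the other 4, so dTAG replicate 1 is also set against the controls alone. The 15 naive stem cell markers, such as Pou5f1 and Nanog, had counts in every library, and summed to 3196 to 3390 CPM per control library. The same sum was 3488, 2172 and 748 CPM across the dTAG libraries, by replicate number.  For these RNA libraries the labels name no separate cultures. The p-values therefore rest on the spread between libraries, which may be technical.

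The clusters lie on chromosome 6 (A, 52155367 to 52260880), chromosome 11 (B, 96194316 to 96368254), chromosome 15 (C, 102921131 to 103036856) and chromosome 2 (D, 74668225 to 74765142), in the RefSeq annotation of GRCm38.p6. Of the 39 members, 27 had a gene span that overlapped no other gene in the table. Of the other 12, 10 overlapped another member, as Hoxb3 does Hoxb4 and Hoxa3 does Hoxa4, Hoxa5 and Hoxa6. Overlapping members such as Hoxa3, Hoxa5 and Hoxa6, all on the minus strand, could not be told apart by strand in their shared spans. Whether counting used the strand is not given in the sources used here. Counts of members and of antisense transcripts such as Hoxa11os could therefore not be told apart either.

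The promoters of 22 members, with 24 start sites, were in the RefSeq promoter table of the same build, each running from 250 bases before the start to 50 bases after it. Shown are Hoxd8, the Hox gene with the most counts in the controls, the members on either side of it, Hoxd9 and Hoxd3, which had few, and Hoxb8. All 4 are on the plus strand, 5′ to 3′. They lie at chr2:74697513-74697812 (Hoxd9), chr2:74704365-74704664 (Hoxd8), chr2:74711743-74712042 (Hoxd3) and chr11:96281655-96281954 (Hoxb8). Capitals mark matches on either strand to TATAAA (the TATA box), to CCAAT (bound by NF-Y), to GGGCGG (bound by Sp factors), to AGGTCA (a half-site of nuclear receptors) and to TGATNNAT (bound by Hox with Pbx proteins).
Hoxd9: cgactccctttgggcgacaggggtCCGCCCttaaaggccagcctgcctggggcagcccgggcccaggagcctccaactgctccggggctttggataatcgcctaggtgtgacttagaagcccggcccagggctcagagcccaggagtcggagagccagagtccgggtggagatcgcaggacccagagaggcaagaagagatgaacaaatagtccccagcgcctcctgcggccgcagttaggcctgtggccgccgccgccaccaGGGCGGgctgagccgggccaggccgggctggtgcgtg
Hoxd8: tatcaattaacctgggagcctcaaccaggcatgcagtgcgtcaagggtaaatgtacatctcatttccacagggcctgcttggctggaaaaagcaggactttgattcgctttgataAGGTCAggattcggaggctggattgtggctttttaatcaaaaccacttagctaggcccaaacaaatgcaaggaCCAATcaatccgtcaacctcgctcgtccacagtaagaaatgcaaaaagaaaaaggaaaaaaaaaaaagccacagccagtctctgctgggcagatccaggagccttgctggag
Hoxd3: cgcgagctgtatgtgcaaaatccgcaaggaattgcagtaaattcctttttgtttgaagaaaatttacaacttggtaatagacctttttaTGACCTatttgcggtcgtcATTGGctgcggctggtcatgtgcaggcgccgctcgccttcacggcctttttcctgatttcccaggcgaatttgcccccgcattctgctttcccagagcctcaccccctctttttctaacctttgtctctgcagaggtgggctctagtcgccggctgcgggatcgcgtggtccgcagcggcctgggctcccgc
Hoxb8: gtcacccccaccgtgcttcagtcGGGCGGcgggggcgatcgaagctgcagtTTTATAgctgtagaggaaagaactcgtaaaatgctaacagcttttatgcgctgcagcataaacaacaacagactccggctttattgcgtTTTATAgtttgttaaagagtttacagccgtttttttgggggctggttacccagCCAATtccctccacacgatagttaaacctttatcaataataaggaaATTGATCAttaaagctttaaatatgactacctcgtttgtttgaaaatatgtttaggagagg
The Hoxd8 window held 46.7% G and C and 6 CpG dinucleotides, against 68.3% and 20 for Hoxd9 and 54.0% and 20 for Hoxd3. Hoxd8 and Hoxd3 each held 1 CCAAT and 1 AGGTCA match, Hoxd9 held GGGCGG alone, at 2 places, and of the 4 only Hoxb8 held TATAAA and TGATNNAT. Over the 24 Hox windows the median G and C share was 57.6% and the median CpG number 14.5, against 52.7% and 7 over all 32851 promoters in the table. CCAAT was present in 62.5% of the Hox windows and 37.4% of all, AGGTCA in 29.2% and 16.3%, TGATNNAT in 16.7% and 8.85%, GGGCGG in 41.7% and 35.7%, and TATAAA in 16.7% and 13.6%. These matches describe letters only.

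In the controls, Hoxd8, Hoxb9 and Hoxc9 held most of the Hox counts. Hoxd8 read 46.4, 34.3 and 38.9 CPM in control replicates 1, 2 and 3, Hoxb9 read 36.8, 36.1 and 39.9, and Hoxc9 read 39.7, 30.2 and 27.04. Together they made up 54.6%, 53.8% and 52.0% of all Hox counts. The 39 genes summed to 205 CPM ± 19.1 (SD, n = 3), or 0.0187% to 0.0225% of all counts. The other 36 members together held 95.5 ± 8.16 CPM.

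Among the members with the highest control means in their cluster, place and level differed. In cluster A, Hoxa7 read 6.18, 7.35 and 3.90 CPM. In cluster B, Hoxb8 followed Hoxb9, its neighbour, at 16.1, 10.4 and 10.2 CPM. In cluster C, the posterior gene Hoxc12 followed Hoxc9 at 5.83, 6.20 and 9.22 CPM. In cluster D, Hoxd13, which patterns digits and genitalia, followed Hoxd8 at only 1.90, 2.56 and 3.69 CPM. Hoxd9 and Hoxd3, on either side of Hoxd8, stood at 1.58 and 1.09 CPM on average, against 39.9 for Hoxd8.

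CPM do not allow for gene length, so levels between members were compared per kb of RefSeq gene span, which counts introns and is not transcript length. Per kb of span, control means among the members named here were 12.0 CPM for Hoxd8, 7.14 for Hoxb9 and 4.36 for Hoxc9, then 3.97 for Hoxc12, 3.23 for Hoxb13, 2.13 for Hoxa13, 2.06 for Hoxb8 and 1.97 for Hoxa7. Hoxb4 was at 0.870. By this measure the posterior members Hoxa13, Hoxb13 and Hoxc12 were among the higher ones. Other posterior members were low, such as Hoxd13 at 0.803, Hoxc10 at 0.271 and Hoxd10 at 0.0501, so no posterior trend is read from this. At the other end Hoxd12 and Hoxb6 stood at or near the floor. Hoxb6 read 0.211, 0 and 0.355 CPM and Hoxd12 read 0, 0.256 and 0.142, where a count of 0 allows up to 3 counts, or 0.192 to 0.213 CPM in a control library. Counting error alone is covered by such floors. No member was at 0 in every control and in dTAG replicate 1.

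**Figure D1:**
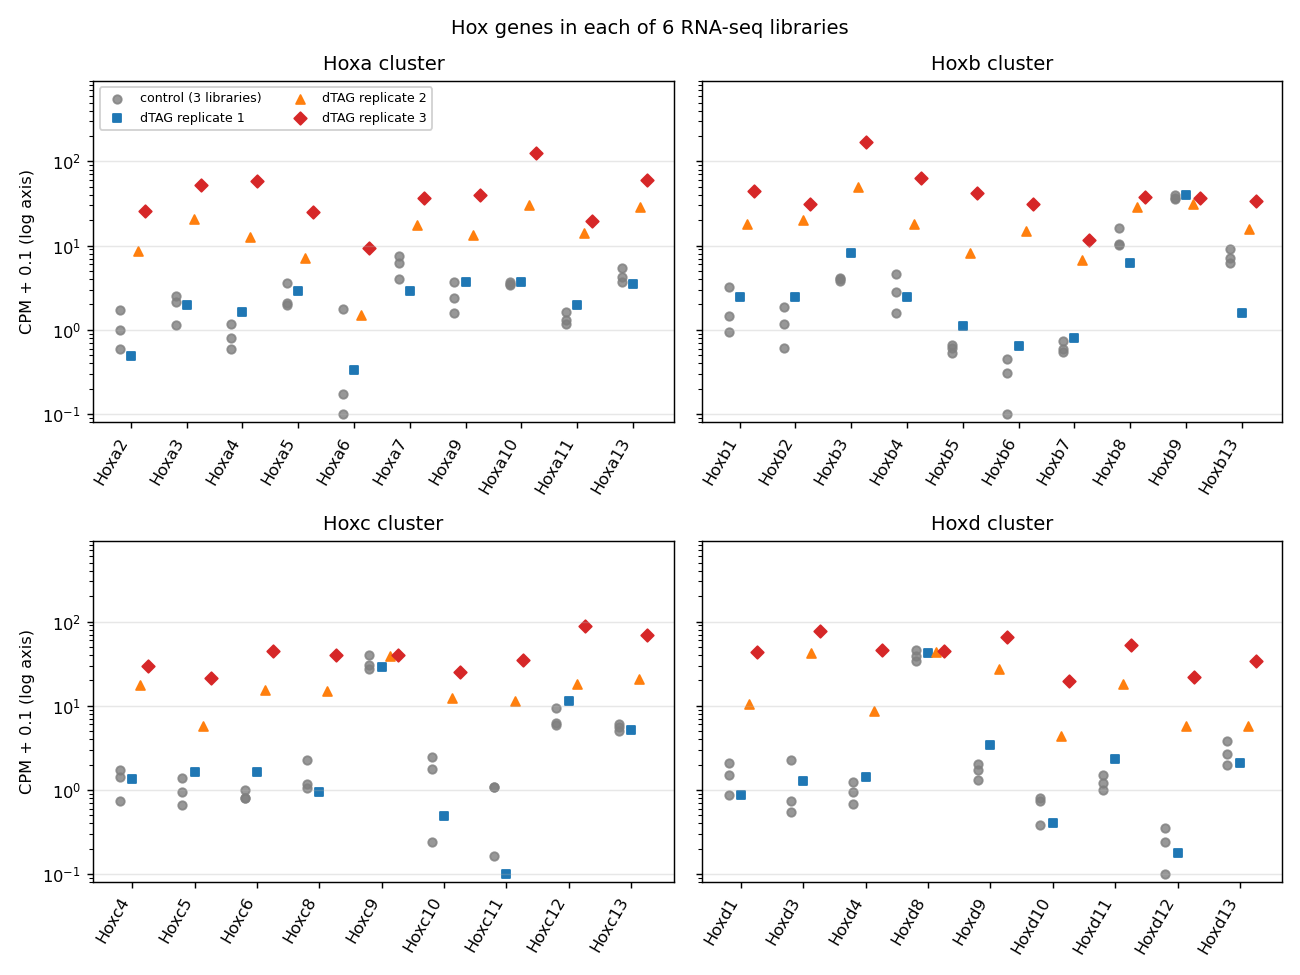
CPM + 0.1 on a log axis of 38 of the 39 Hox genes in each library, 1 panel per cluster, members in paralogue order, 1 marker per library. Control and dTAG replicate 1 markers lie together for most genes, with Hoxd8, Hoxb9 and Hoxc9 highest. dTAG replicates 2 and 3 lie above them for most members but at the same height for those 3.

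dTAG replicate 1 had a Hox sum within the range of the controls, with a few members apart. Its sum was 204 CPM against 225, 187 and 204 in the controls, and Hoxd8, Hoxb9 and Hoxc9 stood at 42.5, 39.8 and 28.4 CPM, 54.3% of the total. Each cluster lay within 1 SD of its control mean: 35.5 CPM against 36.7 ± 2.23 for A, 64.6 against 68.1 ± 7.72 for B, 50.1 against 51.2 ± 4.88 for C and 53.7 against 49.3 ± 6.07 for D (SD, n = 3). Sums by paralogue group differed more. Group 3 summed to 11.1 CPM against 6.77 ± 0.498, and group 13 to 11.9 against 19.9 ± 1.39.

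Hoxb13, the most posterior gene of cluster B and set far from the rest of it, had the smallest p of the members below the controls. It read 8.92, 6.20 and 7.10 CPM in the controls and 1.47 in dTAG replicate 1 (95% Poisson interval 0.886 to 2.30, counting error only). Hoxb8 read 6.04 (4.78 to 7.54) against 10.2 to 16.1. Both were below every control. Neither passed the test with edgeR's quasi-likelihood fit after Benjamini-Hochberg adjustment over all genes: for Hoxb13 the log2 fold change was -2.40 (SE 0.63), unadjusted p = 0.00046 and adjusted p = 0.208, and for Hoxb8 it was -1.09 (SE 0.44) with an adjusted p of 0.693. Over the alternatives tried, the adjusted p of Hoxb13 ran from 0.12 to 0.788. With a single library on the dTAG side, its spread was taken to equal that of the controls. In dTAG replicates 2 and 3 Hoxb13 stood above every control, at 15.5 and 34.2 CPM.

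On the other side, Hoxb3, an anterior gene of hindbrain and neck, read 3.86, 3.71 and 3.97 CPM in the controls and 8.06 (6.58 to 9.76) in dTAG replicate 1. The controls lay close together and dTAG replicate 1 outside them, but the adjusted p was 0.943 (log2 fold change 0.98). Hoxc12 read 11.2 CPM and Hoxd9 3.33, both above every control, with adjusted p of 0.973 and 0.987. Of the 39 members, 14 were above every control in dTAG replicate 1, where 31.9% of the 25668 genes with a count were, and 7 were below every control, where 12.8% of genes were. The 7 were Hoxa2, Hoxa7, Hoxa13, Hoxb8, Hoxb13, Hoxc8 and Hoxc11.

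Across the genome 16 of 18143 tested genes (0.0882%) passed an adjusted p of 0.05 between dTAG replicate 1 and the controls, and 0 of 36 tested Hox genes did. DESeq2 called 0 of 39 and limma-voom 0 of 36. At an unadjusted p under 0.05, edgeR counted 2 Hox genes, both lower, where 5.74% of all genes were counted and 2.51% were lower. The median log2 fold change was -0.01 over the Hox genes and -0.02 over all.

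**Figure D2:**
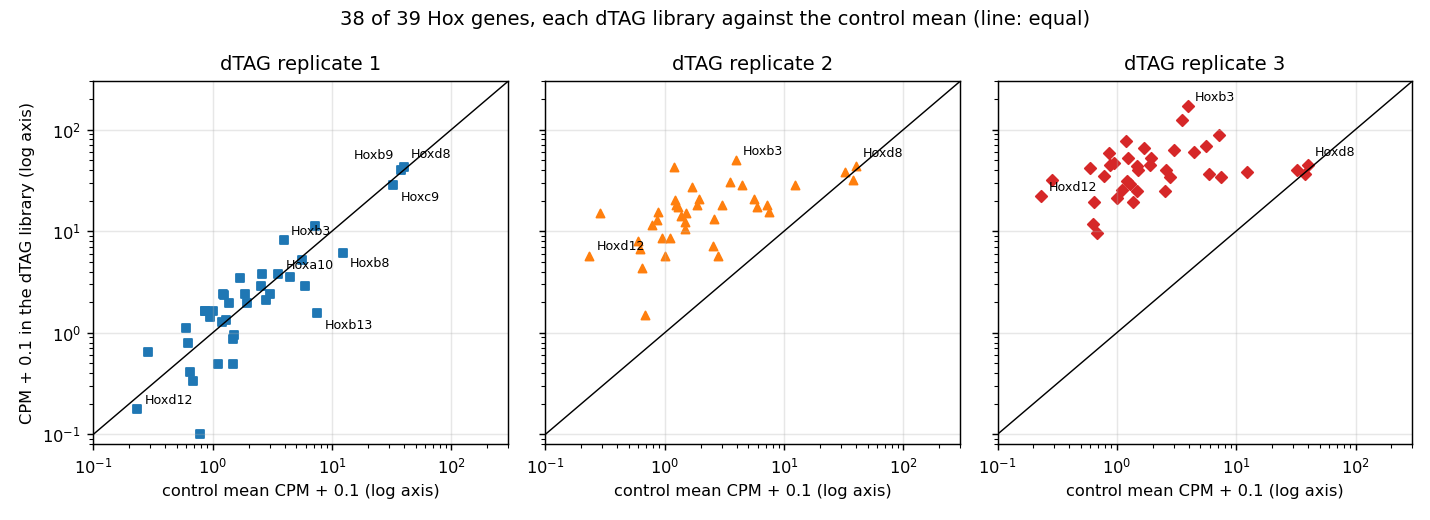
CPM + 0.1 of 38 of the 39 Hox genes in each dTAG library (vertical, log axis) against the control mean (horizontal, log axis), 1 point per gene, with a line of equal values. In dTAG replicate 1 the points follow the line, with Hoxb13 and Hoxb8 below it and Hoxb3 above it. In dTAG replicates 2 and 3 most points lie above the line and spread over a narrower vertical range.

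In dTAG replicates 2 and 3 nearly all Hox genes were above the controls and closer to one another, while the summed CPM of Hoxd8, Hoxb9 and Hoxc9 stayed within 1 SD of the control mean. Over all members the sums were 692 and 1767 CPM, which is 3.37 and 8.61 times the control mean. Of that sum, Hoxd8, Hoxb9 and Hoxc9 held 113 and 121 CPM, against 110 ± 11.6 (SD, n = 3) in the controls, so their share came to 16.4% and 6.84%. The other 36 members summed to 578 and 1646 CPM. The SD of log2(CPM + 1) across the 39 genes was 1.36 to 1.42 per control library and 1.34, 0.94 and 0.81 across the dTAG libraries, by replicate number. The lowest member of dTAG replicate 3, Hoxa6, still read 9.38 CPM. In bulk RNA, more cells that use a gene and more RNA of it per cell cannot be told apart.

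These 2 libraries differed from the controls at most genes. Of the 39 members, 34 in dTAG replicate 2 and 37 in dTAG replicate 3 were above every control, where 67.1% and 79.3% of all genes with a count were. Below every control were 2 members in dTAG replicate 2, where 16% of all genes were, and 0 members in dTAG replicate 3, where 15.9% were. The median CPM of the members was 15.5 and 39.7, beside 11.7 and 23.2 over all named genes, while in the controls the 2 medians were 1.41 to 1.69 and 2.17 to 2.27. Receptor genes took 0.244% and 0.822% of the counts in these libraries and 0.00487% to 0.00605% in the controls. The part of this broad signal in the Hox values was not tested.

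**Figure D3:**
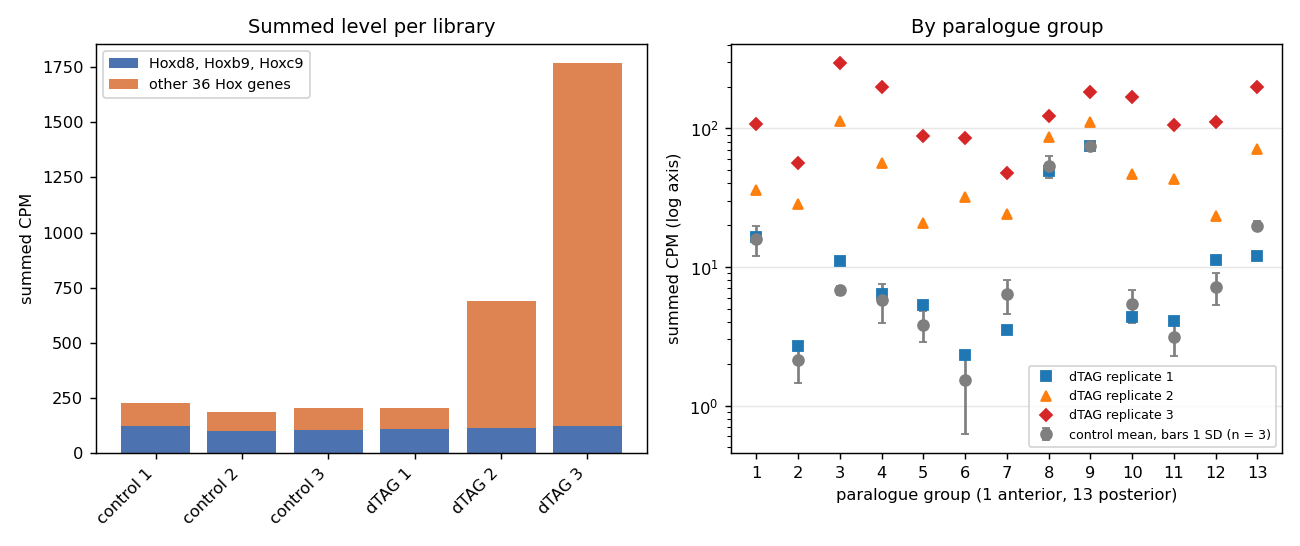
Left, summed CPM of Hoxd8, Hoxb9 and Hoxc9 and of the other 36 Hox genes in each library, stacked from 0. Right, summed CPM by paralogue group in each dTAG library beside the control mean with its SD (n = 3). The first sum is level across libraries, while the second reaches 578 and 1646 in dTAG replicates 2 and 3.

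The paralogue groups differed in the size of the ratio to the controls. Paralogue groups 8 and 9, which hold Hoxb8, Hoxd8, Hoxb9 and Hoxc9, were at 1.62 and 1.49 times their control sums in dTAG replicate 2 and 2.29 and 2.46 times in dTAG replicate 3. Group 3 was at 16.7 and 44.0 times, group 6 at 20.7 and 55.1 times, and group 11 at 13.9 and 34.4 times. Control sums averaged 6.77, 1.54 and 3.10 CPM for groups 3, 6 and 11, against 53.5 and 73.9 for groups 8 and 9. The larger ratios here thus had the smaller control sums. Anterior groups 1 to 4 summed to 30.5 ± 4.29 CPM in the controls and to 234 and 659, central groups 5 to 8 to 65.2 ± 12.0, 163 and 343, and posterior groups 9 to 13 to 110 ± 5.40, 294 and 765. Cluster A stood at 4.41 and 12.8 times its control mean and clusters B, C and D between 3.01 and 3.35 times in dTAG replicate 2 and 7.36 and 8.21 times in dTAG replicate 3. As a description across the 39 genes, which are not independent, Spearman's rank correlation of CPM was 0.75 to 0.92 between pairs of controls. With a control it was 0.79 to 0.82 for the first dTAG replicate, 0.52 to 0.61 for the second and 0.30 to 0.32 for the third. The points share their library and its depth.

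Set against the controls, dTAG replicates 2 and 3 had 28 Hox genes higher and 4 lower at an adjusted p under 0.05 with edgeR, of 39 tested. This grouping was made knowing that these 2 libraries stood apart from the other 4. Its p-values therefore describe these libraries and do not test the dTAG treatment. Over all 22093 tested genes 59.8% passed, 40% higher and 19.8% lower, and the median log2 fold change was 2.59 for Hox genes and 0.68 for all genes. The medians were 4.09 and 2.23 with library totals alone, and 2.55 and 1.35 with no filter. The filter on low counts was met by 23 members in every control and by 4 in no control: Hoxb5, Hoxb6, Hoxb7 and Hoxd12. Those 4 entered through the dTAG libraries alone, and all 4 are among the 28 called higher, so their calls are no support. Hoxb3, with the smallest p of the members, rose from 3.86, 3.71 and 3.97 CPM to 49.7 and 169 (log2 fold change 3.20, SE 0.33, adjusted p = 4.5e-05). Hoxd3, an anterior gene of the axial skeleton, rose from 2.18, 0.447 and 0.639 CPM to 42.7 and 77.2 (4.33, SE 0.55, adjusted p = 0.000161). Hoxa10, a posterior gene of the lumbar spine and uterus, rose from 3.30, 3.64 and 3.41 CPM to 30.5 and 125 (2.84, SE 0.37, adjusted p = 0.00019). All 3 lay far above the controls in both libraries, while in dTAG replicate 1 Hoxd3 and Hoxa10 were at 1.16 and 3.64 CPM.

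The next members by p came from all 4 clusters. Hoxd9 read 1.62, 1.92 and 1.21 CPM in the controls and 3.33, 27.2 and 65.1 in dTAG replicates 1, 2 and 3. Hoxd11, a limb gene, read 1.12, 0.894 and 1.42, then 2.25, 17.8 and 52.4. Hoxc6, a thoracic gene, read 0.702, 0.894 and 0.710, then 1.55, 15.5 and 44.1. These 3 were above every control in all 3 dTAG libraries, as was Hoxa4, at 0.491, 1.09 and 0.710, then 1.55, 12.7 and 58.5. Hoxa3, a gene of the pharyngeal arches, read 1.05, 2.04 and 2.41, then 1.86, 20.6 and 51.9. Hoxb5 read 0.562, 0.511 and 0.426, then 1.01, 7.97 and 41.9, and Hoxb6 reached 0.542, 15.0 and 31.4. Both were over the filter on low counts in no control. In all, 14 members were above every control in all 3 dTAG libraries, where 23.2% of genes with a count were, and 0 were below, where 2.31% were. The 14 were Hoxa4, Hoxa9, Hoxa11, Hoxb2, Hoxb3, Hoxb5, Hoxb6, Hoxb7, Hoxc5, Hoxc6, Hoxc12, Hoxd4, Hoxd9 and Hoxd11.

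The 4 lower calls included Hoxb9, Hoxd8 and Hoxc9, with log2 fold changes of -1.52, -1.19 and -1.05, while the CPM of these 3 lay near those of the controls. Hoxd8 read 43.2 and 44.7 CPM and Hoxc9 38.5 and 39.7, and Hoxb9 read 31.4 and 36.4. The direction for Hoxd8 and Hoxc9, and the size of the change for Hoxb9, rest on the composition correction (TMM). It gave these 2 libraries factors of 1.24 and 2.63 and the control libraries 0.646 to 0.719. With library totals alone, Hoxd8 and Hoxc9 had log2 fold changes of 0.15 and 0.28, Hoxb9 had -0.14, and the calls became 34 Hox genes higher and 0 lower, beside 12369 higher and 602 lower over all genes in place of 8839 and 4383. The 7 members not called were Hoxa5, Hoxa6, Hoxa7, Hoxb8, Hoxb13, Hoxc10 and Hoxd13. Without dTAG replicate 3, which left 1 dTAG library, the median log2 fold change was 2.35 for Hox genes and 0.21 for all genes. Without dTAG replicate 2, which also left 1, the medians were 2.6 and 0.67.

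With all 3 dTAG libraries together, 0 of 35 tested Hox genes passed, as did 0% of 18116 genes. Of the 35, 29 had a log2 fold change above 0, and 20 had an unadjusted p under 0.05, all higher, where 23.2% of all genes passed in either direction, 22.6% higher and 0.607% lower. Hoxb5, in both counts, was over the filter on low counts in no control and entered through the dTAG libraries, so its value is no support. The median was 2.13 for Hox genes and 0.16 for all, and the values moved under other settings: 2.01 and 1.02 with no filter, 2.29 and 1.24 with DESeq2, 1.13 and 0.08 with limma-voom, and 1.43 and 0.06 without dTAG replicate 3. With library totals alone the medians were 3.45 and 1.20. The smallest adjusted p were those of Hoxb3 (0.0795, log2 fold change 3.03, SE 0.67), Hoxd9 (0.0803), Hoxc6 (0.0862), Hoxd11 (0.0867) and Hoxa4 (0.0900). Below 0 were, among others, Hoxc9 (-0.58, adjusted p = 0.391), Hoxb9 (-0.68, 0.400), Hoxd8 (-0.52, 0.457) and Hoxb8 (-0.02, 0.982). DESeq2 called 15 of 39 members, all higher, where it called 22.9% of all genes, and limma-voom called 0.

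Some noncoding RNAs within the clusters had higher CPM in dTAG replicates 2 and 3. Of 12 in the table, 7 were tested between dTAG replicates 2 and 3 and the controls. Of the 7, 4 were called higher, where 40% of all tested genes were: Hoxa11os, Hoxd3os1, Hotair and 5730596B20Rik. The first 3 were over the filter in no control, so they were tested only for their counts in the dTAG libraries. Hoxa11os, antisense to Hoxa11, read 0.281, 0.383 and 0.426 CPM in the controls and 1.63, 15.0 and 54.1 in dTAG replicates 1, 2 and 3. Hotair, of cluster C, read 0.0702, 0.192 and 0, then 0, 3.75 and 11.04. Mira, in cluster A, was above the controls in dTAG replicate 1, at 4.18 CPM against 0 to 0.491, with 0.938 and 4.41 in dTAG replicates 2 and 3. Its adjusted p in dTAG replicate 1 was 0.666. Evx1os, just outside cluster A, read 0.0710 to 0.319 in the controls and 2.32, 21.1 and 44.7 in the dTAG libraries.

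The clusters also hold the miR-10 and miR-196 genes, which act on Hox transcripts among others. Their mature forms share seeds (bases 2 to 8, in capitals) within each family, as the RefSeq sequences show.
mmu-miR-10a-5p: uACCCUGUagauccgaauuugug
mmu-miR-10b-5p: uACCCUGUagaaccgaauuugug
mmu-miR-196a-5p: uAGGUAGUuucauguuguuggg
mmu-miR-196b-5p: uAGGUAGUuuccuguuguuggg
The hairpin genes had few counts, and counts in these libraries do not measure mature miRNAs. Mir10a, Mir10b, Mir196b and Mir196a-2 stood at 0 to 0.211 CPM in the controls, at or below the floor, and Mir196a-1 at 0.421 to 0.781.

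Other homeobox genes, pathway genes and Polycomb genes were read against the shares over all genes in the same fit, 40% higher and 19.8% lower, with a median log2 fold change of 0.68. Of 13 ParaHox, Evx and related genes, 10 were higher and 0 lower, with a median log2 fold change of 3.16 (4.81 with library totals alone, where the median of all genes was 2.23). Of these 13, 3 were over the filter in no control and entered through the dTAG libraries. Cdx1, the most abundant of the list in the controls at a mean of 35.0 CPM, was not called. Mnx1, a motor neuron gene, read 4.63, 2.75 and 2.48 CPM in the controls and 4.18, 22.5 and 70.1 in the dTAG libraries, and Gbx2 read 2.53, 8.94 and 4.26, then 8.60, 35.2 and 97.7. Of the 9 TALE partners, which bind DNA with Hox proteins, only Pknox2 was called, at 2.18, 6.77 and 3.55, then 4.73, 63.3 and 188. With library totals alone 12 of the 13 and 6 of the 9 were higher, where 56% of all tested genes were. Of 19 retinoic acid pathway genes, which feed into anterior Hox use, 8 were higher and 1, Rarg, lower (13 and 0 with library totals), with a median of 0.71, close to that of all genes. Aldh1a1, among the 8, was over the filter in no control and entered through the dTAG libraries, so its call is no support. Cyp26b1, which breaks down retinoic acid, read 3.23, 3.58 and 3.41, then 2.09, 23.0 and 69.5.

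The repressive machinery was expressed in all libraries. Of 23 core Polycomb genes, 3 were higher and 6 lower in dTAG replicates 2 and 3 with TMM, but 7 higher and 3 lower with library totals alone. Rnf2, Cbx8 and Eed were lower under both. Over all genes the shares were 40% higher and 19.8% lower with TMM. With library totals 56% were higher, and only 602 of 22093 genes were lower. Eed, a subunit of the H3K27 methyltransferase complex, read 107, 91.5 and 99.0 CPM in the controls and 97.5, 60.05 and 38.1 in the dTAG libraries, and Ring1, a ubiquitin ligase, read 7.58, 4.03 and 5.25, then 4.73, 29.1 and 88.3. Of 11 Trithorax and demethylase genes, 0 were higher and 4 lower with TMM, and 0 were called in either direction with library totals. Of 24 genes flanking the clusters, 5 were higher and 12 lower with TMM, and 6 and 3 with library totals. Skap1, among the 5, was over the filter in no control and entered through the dTAG libraries, so its call is no support. Atp5g1, near cluster B, was lower under both, at 75.6, 68.7 and 66.6 CPM in the controls and 79.7, 37.1 and 23.7 in the dTAG libraries. In dTAG replicate 1 and in the fit of all 6 libraries, 0 genes of any of these lists were called.

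Markers of other cell types that use Hox genes were higher in dTAG replicates 2 and 3 too. Called higher with TMM were 10 of 13 neural, 12 of 13 mesoderm and 9 of 13 fibroblast markers, where 40% of all tested genes were. Lower were 0, where 19.8% of all tested genes were. Over the filter in no control, and so tested only for their counts in the dTAG libraries, were 1, 3 and 5 of these markers, all called higher. Among the markers over it in every control, 6 of 9, 7 of 8 and 3 of 6 were higher. Meox1, called higher and over the filter in no control, is in both the mesoderm list and the ParaHox, Evx and related list. With library totals alone 13, 13 and 11 of the 13 markers in each list were higher, where 56% of all tested genes were. Of the 15 naive stem cell markers 0 were higher and 4 lower with TMM, and 0 were called with library totals. Neural markers summed to 96.6 to 110 CPM in the controls and 116, 453 and 1062 in dTAG replicates 1, 2 and 3. Mesoderm markers summed to 22.04 to 25.5, then 33.2, 247 and 635. Fibroblast markers summed to 73.1 to 108, then 114, 238 and 620, and S100a4 was at 0 in the controls and dTAG replicate 1. Receptor genes summed to 48.8 to 60.5 CPM, then 161, 2439 and 8223, and of 455 tested 399 were higher. Of the 455, 414 were over the filter in no control and had to differ in order to be tested, so that count is no support. The part of other cells, or of this broad signal, in the Hox result was not tested.

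**Figure D4:**
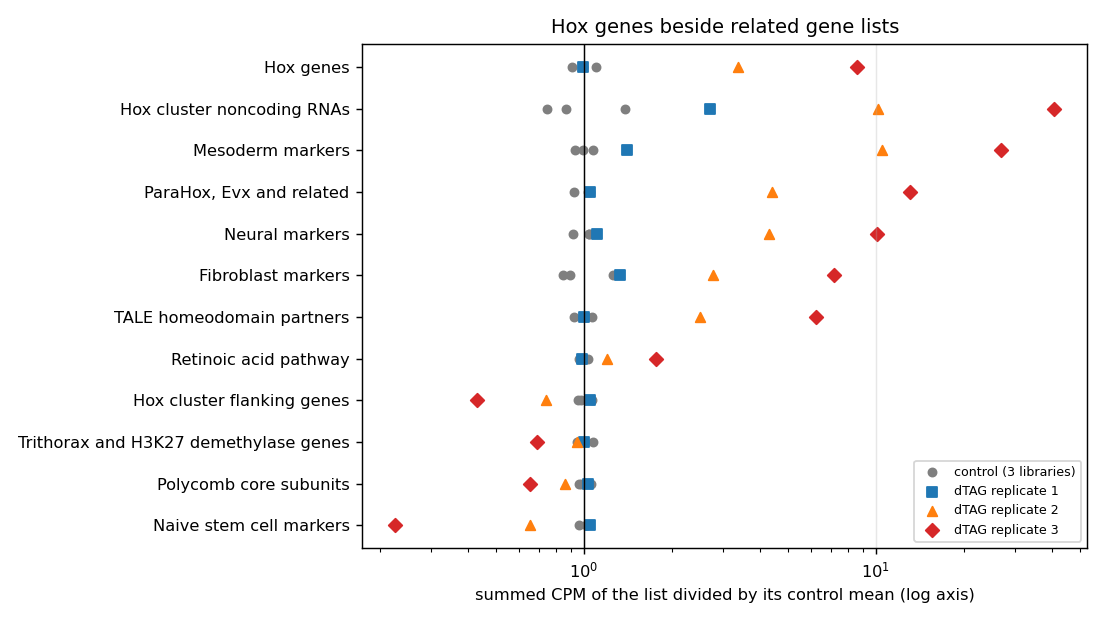
Summed CPM of the Hox genes and of each of 11 gene lists in each library, divided by the control mean of that list (log axis), 1 marker per library. dTAG replicate 1 lies above every control for the noncoding, mesoderm, fibroblast, neural, naive and, narrowly, the ParaHox and Evx lists, and within the controls for the Hox genes, and dTAG replicates 2 and 3 lie above 1 for the Hox, noncoding, homeobox and lineage lists and below 1 for the naive markers.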

How the data were processed

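Counts per gene were deposited by the authors as whole numbers, not normalized, in a table of 27179 rows for 3 control and 3 dTAG libraries, and samples were grouped by their titles. Per the submitters' processing notes, build mm10 was used with limma, edgeR, featureCounts and STAR 2.7.2b. The sources used here give neither their roles nor the annotation nor the use of strand. Per the labels' protocols the libraries were ribosomal RNA-depleted, though the kit named is one for messenger RNA, and ERCC spike-ins were added. The table held 0 rows named ERCC, so RNA per cell could not be scaled. The 903 rows without a symbol held 2.20% to 2.37% of the counts in the controls, and 2.33%, 6.67% and 14.6% in dTAG replicates 1, 2 and 3. They entered neither library sizes nor tests. The other 83 of 89 samples were not analysed here.

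CPM were computed over the 26276 named genes. The upper limit for a count of 0, taken as 3 counts, was 0.192 to 0.213 CPM per control library and 0.232, 1.41 and 1.66 CPM for the dTAG libraries, so dTAG replicates 2 and 3 give the least precise values.

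Two-sided quasi-likelihood tests (glmQLFTest after glmQLFit) used R 4.3.3 with edgeR 4.0.16 (TMM, filterByExpr with minimum count 10 and minimum total 15), fitted over all named genes with Benjamini-Hochberg adjustment and a threshold of 0.05. Comparisons were all 6 libraries, dTAG replicate 1 against the controls, and dTAG replicates 2 and 3 against the controls. They share the controls, so agreement between them is no result. Alternatives were RLE scaling, library totals alone, other filters, DESeq2 1.42.0, limma-voom (limma 3.58.1), an adjusted p under 0.01, a replicate block and leaving out each library. The scripts were tested on simulated data.

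The members and the 11 gene lists were chosen with earlier results of these data known, and no list was tested as a set. Named were the 2 members of each cluster with the highest control mean, up to 10 members called in each direction, the 5 with the smallest p in each direction over 6 libraries, any at 0 in all controls and dTAG replicate 1, and, from each list, examples among up to 4 called members. Hoxb13, Hoxc12 in dTAG replicate 1, Mira, Evx1os, H2afz, the receptor genes, Pou5f1, Nanog, the miRNA genes and the members with printed promoters were named for other reasons, after values were seen. So were Mnx1, Gbx2, Cdx1, Rarg, Rnf2 and Cbx8, which were not among the called members of their lists with the smallest p. The values of 1 member are not reported here, though it is part of the counts and sums. Gene spans, promoters and miRNA sequences came from RefSeq tables of GRCm38.p6, in which all 39 members matched by symbol.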

Additional observations from a re-analysis of the deposited data

How the results depend on the processing

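In the fit of all 6 libraries, 0 Hox genes were called under each alternative except DESeq2 (15, with 5196 genes in all), no filter on low counts (3, with 1398) and leaving out a library (0 to 32, with 0 to 13222 genes in all), where the high end is without dTAG replicate 1. The replicate block called 0 Hox genes and 13 genes in all. Same-numbered libraries did not deviate together (correlations 0.04, -0.03 and 0.03). The wide differences among the dTAG libraries could hide a pairing, so whether the numbers pair the samples cannot be told from this. Some members near 0 turned direction. Hoxb8 became 0.00 with RLE scaling, 1.06 with library totals, 0.14 with a filter of 1 CPM and ran from -0.51 to 0.06 with a library left out (0.06 without dTAG replicate 1). Hoxb13 became 0.02, 1.28 and 0.18, and ran from -0.48 to 0.23 (0.23 without dTAG replicate 1). With library totals Hoxc9 and Hoxd8 became 0.20 and 0.18. Hoxa7 became -0.23 with limma-voom, and with a library left out Hoxd13 ran from -0.03 to 1.14 and Hoxa6 from -0.16 to 4.59, both lowest without dTAG replicate 3. Between dTAG replicate 1 and the controls, 0 Hox genes were called under any alternative, while the count over all genes was 41 with no filter, 5 with limma-voom and 20 to 60 with a library left out. For dTAG replicates 2 and 3 against the controls, the Hox count was 22 and the count over all genes 7765 at an adjusted p under 0.01, and with a library left out they were 19 to 29 and 9095 to 14015. With library totals Hoxd8 and Hoxc9 became 0.15 and 0.28. Counted over all rows, the Hox sums of dTAG replicates 2 and 3 were 645 and 1510 CPM. The cause of these changes was not tested. Depth limits dTAG replicates 2 and 3, where 1 to 3 counts are up to 1.66 CPM.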
